A study of Mus musculus with 12 samples.

Results

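DNA replication and S phase genes were followed across 12 Illumina mouse bead arrays of whole ovary. A list of 51 genes was matched by gene symbol to 102 of the 45281 probes on the array, and a probe was kept if its detection p-value was under 0.05 on 3 or more arrays. This left 77 probes of 47 genes among 22511 tested probes of 12173 genes. Gmnn, Pola1, Pole2 and Prim1 had no probe that passed. Gmnn encodes geminin, the inhibitor of licensing, and the other 3 encode subunits of replicative polymerases and primase. Of the 25 probes left out, 16 were detected on 0 arrays and 9 on 1 or 2 arrays.

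All ovaries were from FVB/N females at 14 dpn (days postnatal). Each of 4 groups had 3 arrays. NoTg Foxo3+/- ovaries carried no transgene and 1 functional copy of Foxo3, and Tg Foxo3+/- ovaries added the transgene. NoTg Foxo3-/- ovaries lacked Foxo3, and Tg Foxo3-/- ovaries lacked it and carried the transgene. No group had 2 intact copies of Foxo3, so the heterozygote stood as the control for the null. By its title, the series studied constitutively active Foxo3 in oocytes, and the labels give neither the promoter nor the dose of the transgene. Whether the 3 arrays of a group came from separate animals is not stated, so p-values measure only the spread between these arrays, part of which may be technical.

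Replication starts where the origin recognition complex binds DNA. CDC6 and CDT1 load the ring of MCM proteins onto it, a step called licensing. In S phase the kinases CDC7-DBF4 and cyclin E-CDK2 activate the ring, CDC45 and the GINS complex complete the helicase, and polymerases held by the PCNA clamp copy both strands. Ribonucleotide reductase, thymidine kinase and thymidylate synthase supply nucleotides. Many of these genes are transcribed at the entry to S phase under the E2F factors. In the young ovary the dividing cells are mainly granulosa cells of growing follicles, while oocytes are arrested in meiosis and store RNA of many replication factors. FOXO3 in the oocyte is known for holding primordial follicles at rest.

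The upstream sequences of 5 members are shown as examples with and without the E2F letters. A RefSeq table of promoter windows (GRCm38.p6), which reach from 250 bases before each gene's start to 50 bases after it, held 42 of the 51 listed genes. The first window listed was used for the 7 genes with several. The letters searched, on both strands, were TTCCCGC or TTGGCGC or TTCGCGC or TTGCCGC, and matches may overlap. The 250 bases before the start are given 5′ to 3′ on the gene's strand, with matches in capitals, for Clspn (chr4:126556730-126556979, plus strand), Tk1 (chr11:117826015-117826264, minus strand), Chaf1a (chr17:56040166-56040415, plus strand), Mcm5 (chr8:75109259-75109508, plus strand) and Mcm6 (chr1:128359706-128359955, minus strand).
Clspn: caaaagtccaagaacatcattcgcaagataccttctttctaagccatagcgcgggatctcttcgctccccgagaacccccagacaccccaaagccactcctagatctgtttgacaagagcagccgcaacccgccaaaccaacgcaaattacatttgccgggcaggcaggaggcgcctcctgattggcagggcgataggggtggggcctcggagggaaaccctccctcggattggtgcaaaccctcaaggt
Tk1: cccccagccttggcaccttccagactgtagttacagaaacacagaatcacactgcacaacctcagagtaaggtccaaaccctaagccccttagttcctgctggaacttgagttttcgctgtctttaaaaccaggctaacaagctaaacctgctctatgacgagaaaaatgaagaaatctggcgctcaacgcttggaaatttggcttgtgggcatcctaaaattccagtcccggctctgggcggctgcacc
Chaf1a: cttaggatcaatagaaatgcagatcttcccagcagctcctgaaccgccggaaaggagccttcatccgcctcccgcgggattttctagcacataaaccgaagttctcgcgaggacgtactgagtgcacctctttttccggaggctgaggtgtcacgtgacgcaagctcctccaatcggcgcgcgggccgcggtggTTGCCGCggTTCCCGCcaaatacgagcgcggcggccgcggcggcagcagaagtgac
Mcm5: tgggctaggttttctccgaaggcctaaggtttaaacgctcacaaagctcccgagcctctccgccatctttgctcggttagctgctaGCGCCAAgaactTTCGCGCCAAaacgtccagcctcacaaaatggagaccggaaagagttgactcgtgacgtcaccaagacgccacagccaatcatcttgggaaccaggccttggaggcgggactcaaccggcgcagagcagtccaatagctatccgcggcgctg
Mcm6: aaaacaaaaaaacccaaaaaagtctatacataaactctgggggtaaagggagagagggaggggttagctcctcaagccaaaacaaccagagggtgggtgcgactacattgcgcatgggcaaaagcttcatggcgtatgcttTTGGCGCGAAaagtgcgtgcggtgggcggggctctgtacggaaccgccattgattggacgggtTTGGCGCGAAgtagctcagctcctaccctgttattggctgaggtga
Clspn and Tk1 had the smallest p-values of the Foxo3 comparison among members with a window. Chaf1a was the called member with matches before the start. Mcm5 and Mcm6 were picked as the uncalled members of smallest p with 3 or more matches before the start, and carried 3 and 4. The contrast of these 2 with Clspn and Tk1 was thus set by the choice. Other uncalled members, such as Lig1 and Mcm10, had 0 matches before the start.

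An E2F match was present in 24 of the 42 member windows (57.1%) and in 2618 of 27025 windows of all genes (9.69%). Among the members called higher in Foxo3-/- ovaries, 3 of 9 windows held a match, in Clspn, Cdt1 and Chaf1a. Among tested members that were not called, 18 of 30 windows held one. The match of Clspn lay after the start and so outside the sequence shown. The forkhead letters GTAAACA were present in 1 member window, that of Cdc45 (2.38% of members), and in 3.55% of all windows. A match in these letters is a description of the window and no evidence of binding.

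The arrays had 20072 to 22015 probes detected. Each array's background level was 76.3 to 81.2 intensity units in the NoTg groups and 65.4 to 74.2 in the Tg groups. Within each transgene state it was higher on every Foxo3-/- array than on any Foxo3+/- array, so background level moved with both factors. Foxo3 itself was read by 1 tested probe of 3. Its log2 intensity was 7.81, 7.92 and 8.44 in NoTg Foxo3+/-, 7.89, 7.87 and 8.13 in Tg Foxo3+/-, 8.45, 8.18 and 8.65 in NoTg Foxo3-/-, and 8.29, 8.37 and 8.20 in Tg Foxo3-/- ovaries. The probe was not lower in the null groups. It was higher by 0.35 on the log2 scale averaged over transgene states, and was not called (SE 0.12, limma's adjusted p = 0.0816). Its position relative to the deletion or the transgene is unknown here, so it checks no label.

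Replication genes were higher in Foxo3-/- than in Foxo3+/- ovaries, by small amounts. Averaged over both transgene states, 15 of the 77 probes rose and 0 fell at limma's adjusted p under 0.05 (Benjamini-Hochberg over all tested probes). These were 19.5% of the member probes, against 4.13% of all tested probes called higher in the same comparison. Of the 15, 1 dim Tk1 probe passed the detection filter through Foxo3-/- arrays alone, the group where it was higher. A Cdc6 probe, ILMN_3155217, was also detected on Foxo3-/- arrays alone and was not called. Among the 75 member probes detected on arrays of both genotypes 14 were called (18.7%), against 4.14% of all such probes. The 15 belonged to 11 genes, namely Ccne1, Cdc45, Cdt1, Chaf1a, Clspn, Gins1, Gins2, Orc6, Rfc5, Tk1 and Tyms. Fold changes of these 11 genes, taken at the called probe with the smallest p, ran from 1.19 for Orc6 to 1.58 for Gins2. The median difference of member probes was 0.21 on the log2 scale against 0.01 for all tested probes, and 69 of 77 lay above 0. With the brightest probe of each gene alone, 10 of 47 genes were called and Gins2 was the one not among them. In a separate fit of 1 probe per gene, 618 of all 12173 genes were called higher.

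**Figure D1:**
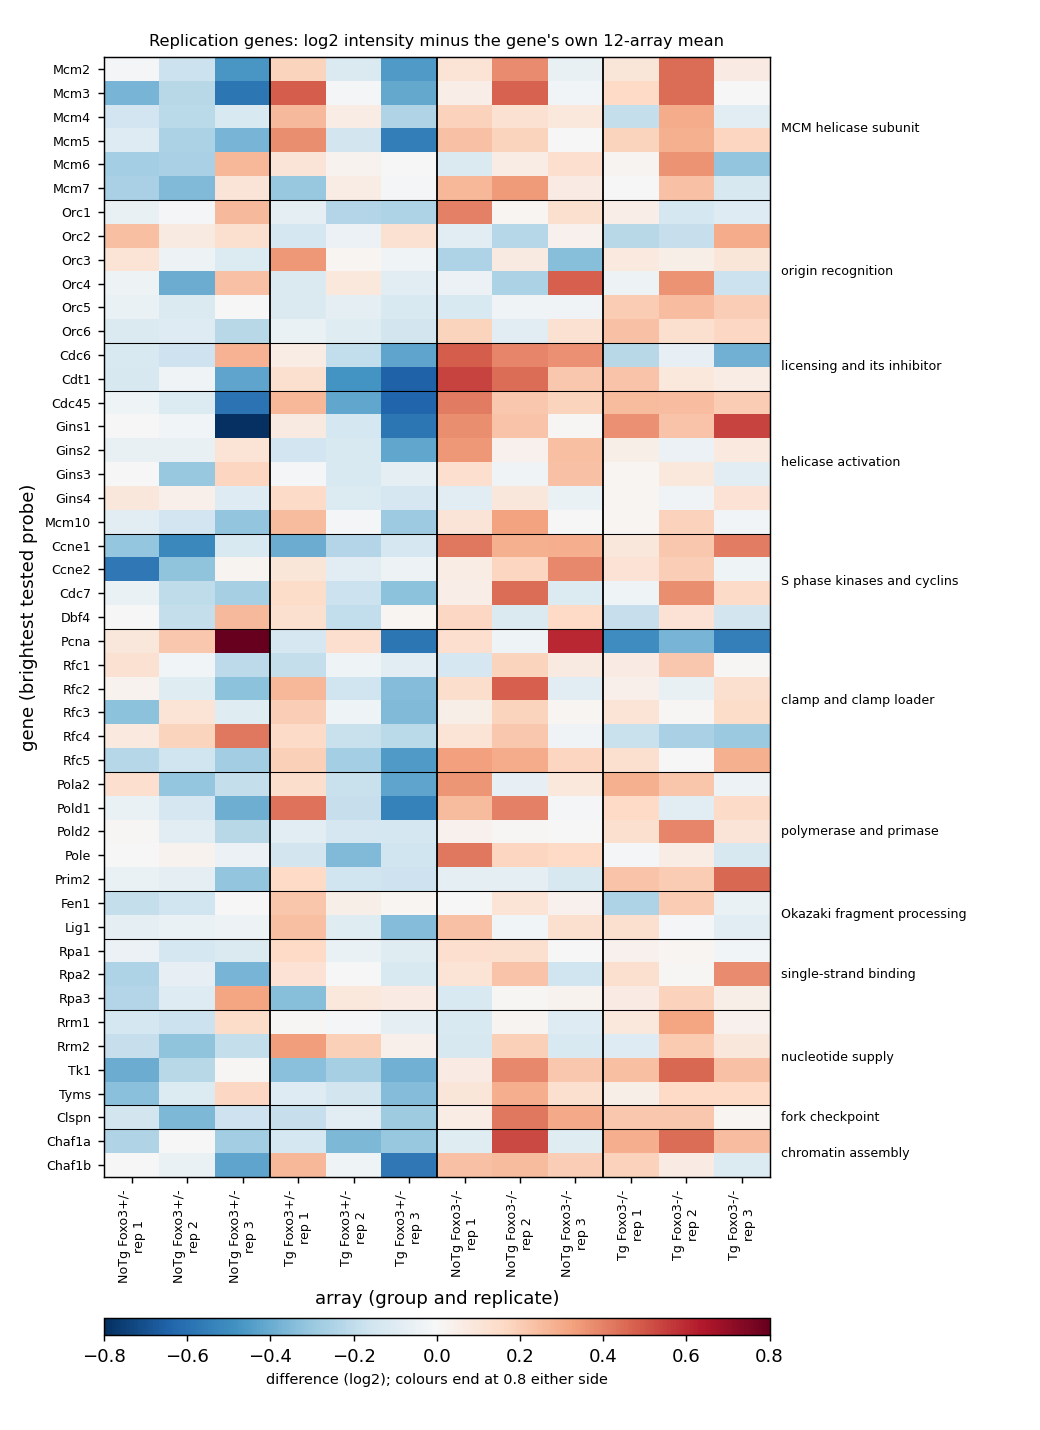
Colour gives the log2 intensity of the brightest tested probe of 47 genes on each of 12 arrays, minus the gene's own mean over all arrays, with rows ordered by role and columns by group. The 6 Foxo3-/- arrays had 28 to 37 of 47 genes above their own mean, and the 6 Foxo3+/- arrays 6 to 29.

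The array-by-array view shows how evenly this was spread. Over the brightest probes, the median difference of an array from each gene's own mean was 0.06 to 0.19 on the log2 scale on all 6 Foxo3-/- arrays. It was -0.06, -0.12 and -0.12 on the NoTg Foxo3+/- arrays. The Tg Foxo3+/- arrays were uneven, with 0.11 on replicate 1, -0.11 on replicate 2 and -0.24 on replicate 3. Tg Foxo3+/- replicate 1 stood apart from the other heterozygous arrays, with 29 of 47 genes above their mean. Without it, 22 member probes and 2128 of all probes were called in the averaged comparison, against 15 and 1878 with all arrays. Without Tg Foxo3+/- replicate 2 only 7 member probes and 1274 of all probes were called, so the count over all probes moved the same way.

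Other ovarian signals moved with the same groups, where 4.13% of all tested probes were called higher and 4.22% lower. Of 14 oocyte markers, all tested, 5 rose in Foxo3-/- ovaries and their summed intensity was 83169 to 94825 on Foxo3+/- arrays and 107731 to 115287 on Foxo3-/- arrays. Of 12 mitosis genes, 7 were tested, 3 rose, and their sum was 8582 to 10937 against 11134 to 12781. Mki67, Ccnb1, Ccnb2, Ccna2 and Bub1 had no tested probe. Stroma markers went the other way, where 4 of 8 fell and sums were 22390 to 27598 against 17415 to 20213, as did surface epithelium markers, where 4 of 7 fell and sums were 3085 to 3917 against 2388 to 3129. Of 10 tested granulosa markers, 1 fell and 0 rose, with sums of 40711 to 68154 against 37200 to 44489. Of 5 tested theca markers 2 fell and 0 rose, with a median difference of -0.60 and sums of 1643 to 6270 against 1499 to 5536, while Lhcgr was not tested. The part of these shifts in the replication genes was not tested, and in whole ovary a change in the number of cells of a type and a change in RNA per cell cannot be told apart. With each array's background level as a covariate, 1 of the 15 probes was still called (Tk1, adjusted p = 0.0333), while the members' median difference was 0.19 in place of 0.21.

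Of the 8 probes of the 6 MCM helicase genes, 0 were called by limma and 5 had an unadjusted p under 0.05, against 23.4% of all tested probes. All 8 lay above 0, with a median difference of 0.28 on the log2 scale. The median was 0.37 without the transgene, where all 8 lay above 0, and 0.15 with it, where 5 did. The test of that difference between transgene states called 0 of them. Mcm5 had the smallest p of them. Its log2 intensity was 11.35, 11.20 and 11.08 in NoTg Foxo3+/-, 11.82, 11.30 and 10.90 in Tg Foxo3+/-, 11.69, 11.63 and 11.46 in NoTg Foxo3-/-, and 11.63, 11.73 and 11.63 in Tg Foxo3-/- ovaries. The groups did not overlap without the transgene and overlapped with it, where replicate 1 of Tg Foxo3+/- was the highest array of all. The averaged difference was 0.35 ± 0.12 (SE, 12 arrays; adjusted p = 0.0724). Mcm2 differed by 0.35 ± 0.12 (adjusted p = 0.0882), Mcm3 by 0.37 ± 0.15 and Mcm4 by 0.14 ± 0.09. The 2 probes of Mcm6 gave 0.27 and 0.05, and those of Mcm7 gave 0.29 and 0.26. The upstream letters of Mcm5 and Mcm6 printed earlier belong to genes chosen for having such letters and for staying short of the threshold.

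Origin recognition genes had a median difference of 0.11 over 9 probes, and 1 was called, in Orc6 (4.13% of all probes were called higher). Its intensity was 10.51, 10.52 and 10.40 in NoTg Foxo3+/- and 10.57, 10.53 and 10.47 in Tg Foxo3+/- ovaries. It was 10.80, 10.54 and 10.74 in NoTg Foxo3-/- and 10.85, 10.75 and 10.79 in Tg Foxo3-/- ovaries. The null arrays were higher in both transgene states, narrowly so without the transgene, and the averaged difference was 0.25 ± 0.07 (adjusted p = 0.0418). Orc5 differed by 0.00 ± 0.09 without the transgene and by 0.32 ± 0.09 with it (adjusted p = 0.0756), where the null arrays read 11.20 to 11.25 and the heterozygous arrays 10.88 to 10.93. Orc1 to Orc4 differed by -0.13 to 0.12 at their brightest probes, and none was called.

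Of the licensing loaders, Cdt1 rose and Cdc6, though tested, was not called. Cdt1 intensity was 10.57, 10.67 and 10.27 in NoTg Foxo3+/- and 11.24, 11.14 and 10.91 in NoTg Foxo3-/- ovaries. With the transgene it was 10.82, 10.22 and 10.05 in Foxo3+/- and 10.92, 10.78 and 10.76 in Foxo3-/- ovaries. The groups did not overlap without the transgene, and with it 1 heterozygous array, replicate 1, lay within the null range. The averaged difference was 0.53 ± 0.12 (1.44-fold, adjusted p = 0.0111). Cdc6 at its brighter probe was 8.61, 8.52 and 8.49 in NoTg Foxo3-/- ovaries and 7.70 to 8.40 on all other arrays, so it was high in a single group. Its difference was 0.42 ± 0.16 without the transgene and -0.04 ± 0.16 with it, and the test of that difference gave -0.45 ± 0.22 (adjusted p = 0.994).

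Of the helicase activation probes, 4 of 9 were called, against 4.13% of all probes called higher. The median difference of the 9 was 0.38. GINS is a complex of 4 subunits that binds CDC45 and the MCM ring. Gins2 was read by 3 probes. At ILMN_1246270, intensity was 8.69, 8.80 and 8.70 in NoTg Foxo3+/-, 8.79, 8.77 and 8.37 in Tg Foxo3+/-, 9.33, 9.60 and 9.20 in NoTg Foxo3-/-, and 9.32, 9.21 and 9.44 in Tg Foxo3-/- ovaries. Every null array was above every heterozygous array. The difference was 0.65 ± 0.14 without the transgene (adjusted p = 0.0376), 0.68 ± 0.14 with it (adjusted p = 0.0174) and 0.66 ± 0.10 averaged (1.58-fold, adjusted p = 0.000723). ILMN_1245109 gave 0.59 ± 0.13 (adjusted p = 0.0129), whereas the brightest probe, ILMN_2547942, gave 0.23 ± 0.09 (adjusted p = 0.113). The 3 probes agreed in direction and not in size.

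Gins1 intensity was 8.59, 8.57 and 7.53 in NoTg Foxo3+/-, 8.66, 8.45 and 8.01 in Tg Foxo3+/-, 8.96, 8.82 and 8.60 in NoTg Foxo3-/-, and 8.96, 8.82 and 9.13 in Tg Foxo3-/- ovaries. The null arrays were above the heterozygous arrays in each transgene state, and replicate 3 of both heterozygous groups was the lowest. Its difference was 0.58 ± 0.17 (adjusted p = 0.039). Cdc45 was 8.46, 8.39 and 7.90, then 8.76, 8.08 and 7.86 in the NoTg and Tg heterozygotes, and 8.67 to 8.91 on the 6 null arrays. Only Tg Foxo3+/- replicate 1 reached the null range, and the difference was 0.50 ± 0.14 (adjusted p = 0.0326). Gins3 and Gins4, the remaining subunits, differed by 0.12 ± 0.11 and 0.02 ± 0.07. Mcm10, a scaffold that binds CDC45 and the polymerases, had groups that did not overlap in either transgene state at 1 of 2 probes (0.38 ± 0.13, adjusted p = 0.0781) and was not called.

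Of the S phase kinases and cyclins, Ccne1 rose. It encodes cyclin E1, the activator of CDK2 at the entry to S phase. Its intensity was 5.68, 5.47 and 5.87 in NoTg Foxo3+/-, 5.59, 5.76 and 5.85 in Tg Foxo3+/-, 6.41, 6.27 and 6.28 in NoTg Foxo3-/-, and 6.08, 6.21 and 6.40 in Tg Foxo3-/- ovaries. No null array overlapped a heterozygous array, and the difference was 0.57 ± 0.11 (1.49-fold, adjusted p = 0.00477). Ccne2, cyclin E2, differed by 0.49 ± 0.17 without the transgene (adjusted p = 0.17) and 0.10 ± 0.17 with it. The kinase Cdc7 differed by 0.29 ± 0.11 (adjusted p = 0.119) and its activator Dbf4 by 0.00 ± 0.10 at the brightest of 3 probes.

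**Figure D2:**
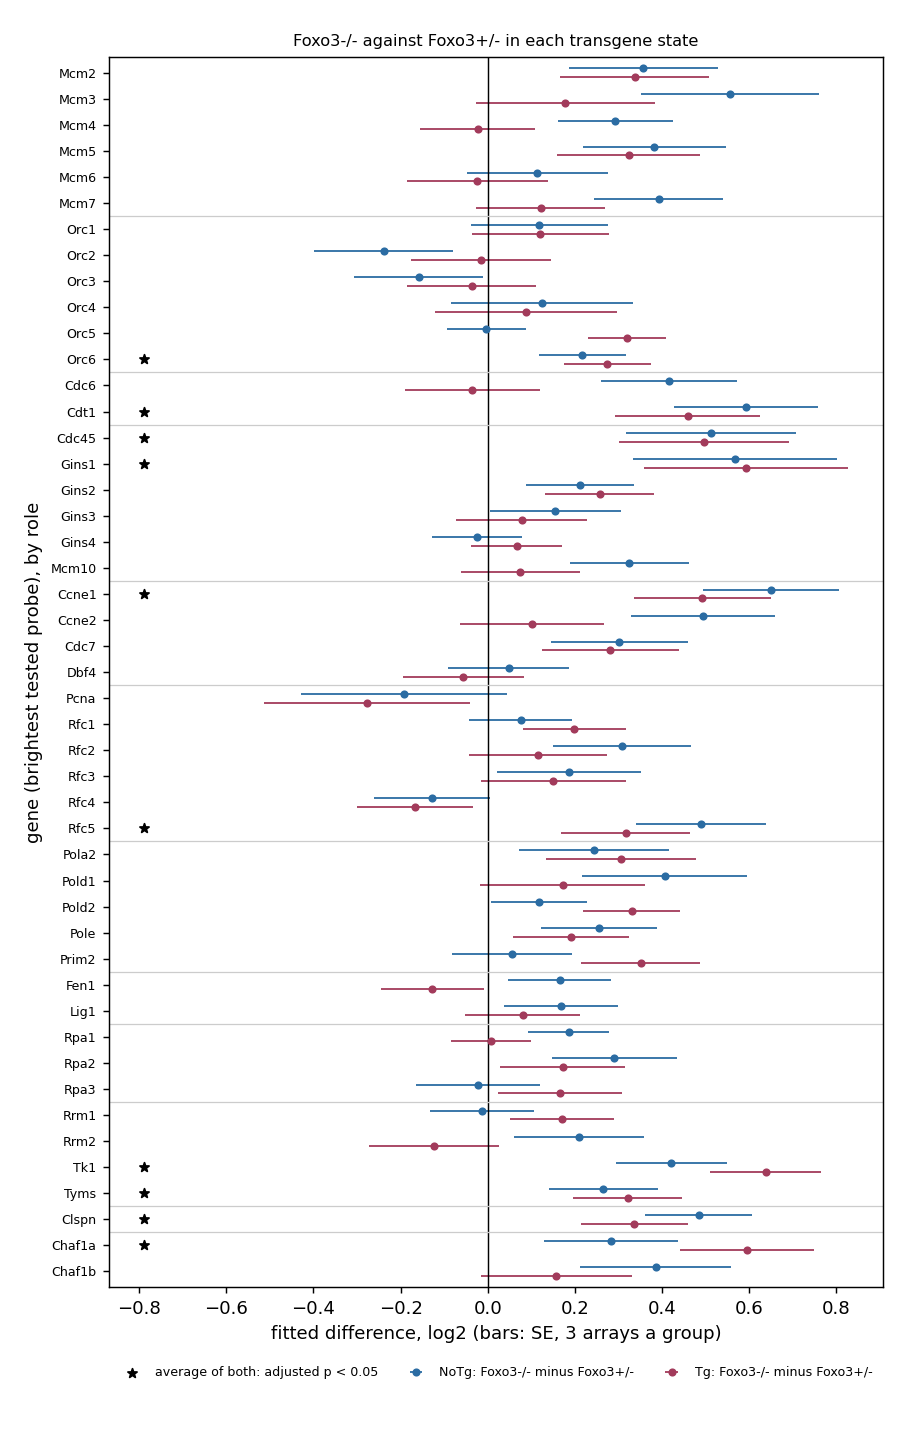
Points give the fitted log2 difference, Foxo3-/- minus Foxo3+/-, at the brightest tested probe of 47 genes without and with the transgene, with bars of 1 SE and stars at the 10 genes whose averaged difference was called. Of the 47 genes, 39 lie to the right of 0 without the transgene and 37 with it, and Pcna lies to the left in both.

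Nucleotide supply genes had 4 of 10 probes called, against 4.13% of all probes called higher, with a median of 0.25. The called probes were of Tk1 and Tyms alone, and 1 of them was the dim Tk1 probe described below. Tk1, thymidine kinase, was called at both probes detected on all 12 arrays. At the brightest, intensity was 9.22, 9.39 and 9.63 in NoTg Foxo3+/-, 9.28, 9.35 and 9.23 in Tg Foxo3+/-, 9.68, 9.998 and 9.83 in NoTg Foxo3-/-, and 9.85, 10.07 and 9.85 in Tg Foxo3-/- ovaries. All null arrays were above all heterozygous arrays. The difference was 0.42 ± 0.13 without the transgene (adjusted p = 0.127), 0.64 ± 0.13 with it (adjusted p = 0.0152) and 0.53 ± 0.09 averaged (1.44-fold, adjusted p = 0.00205). A dim probe, ILMN_2611857, was detected on 0 of 6 heterozygous arrays and on 5 null arrays, so its level there is only a bound. It passed the filter only through the null arrays, and its own call adds no support. The Tk1 probe ILMN_2611858 was detected on 0 arrays and not tested. With the transgene ILMN_2611857 was at least 1.29-fold higher in the null. Without the transgene its bound of 0.952-fold showed no rise.

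Tyms, thymidylate synthase, differed by 0.29 ± 0.09 at its brightest probe (adjusted p = 0.0494). Its intensity was 10.21, 10.44 and 10.71 in NoTg Foxo3+/-, 10.44, 10.40 and 10.20 in Tg Foxo3+/-, 10.64, 10.84 and 10.68 in NoTg Foxo3-/-, and 10.60, 10.71 and 10.71 in Tg Foxo3-/- ovaries. The groups overlapped without the transgene and not with it. The ribonucleotide reductase subunits Rrm1 and Rrm2 differed by 0.08 ± 0.08 and 0.04 ± 0.11 at their brightest probes and were not called.

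Clspn encodes claspin, which links a stalled fork to the checkpoint kinase CHK1. It was read by 4 probes, and 2 were called. At ILMN_2623056, intensity was 9.06, 9.01 and 8.95 in NoTg Foxo3+/-, 8.92, 8.88 and 9.05 in Tg Foxo3+/-, 9.47, 9.67 and 9.64 in NoTg Foxo3-/-, and 9.31, 9.53 and 9.27 in Tg Foxo3-/- ovaries. Every null array was above every heterozygous array. The difference was 0.59 ± 0.12 without the transgene (adjusted p = 0.0255), 0.42 ± 0.12 with it (adjusted p = 0.0677) and 0.50 ± 0.08 averaged (adjusted p = 0.00139). The brightest probe gave 0.41 ± 0.09 (adjusted p = 0.00816), and the 2 others gave 0.52 ± 0.16 (adjusted p = 0.0558) and 0.07 ± 0.15.

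Chaf1a and Chaf1b encode subunits of the factor that lays histones on new DNA. Chaf1a intensity was 9.31, 9.55 and 9.27 in NoTg Foxo3+/-, 9.40, 9.19 and 9.24 in Tg Foxo3+/-, 9.45, 10.07 and 9.45 in NoTg Foxo3-/-, and 9.84, 9.99 and 9.79 in Tg Foxo3-/- ovaries. The groups overlapped without the transgene, where 1 null array stood high, and not with it. The difference was 0.44 ± 0.11 (adjusted p = 0.0201). Chaf1b differed by 0.27 ± 0.12 (adjusted p = 0.19).

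Of the 10 probes of the clamp and clamp loader genes, 1 was called (4.13% of all probes were called higher), in Rfc5. It encodes a subunit of replication factor C, which opens the PCNA ring and closes it around DNA. Rfc5 intensity was 8.59, 8.66 and 8.54 in NoTg Foxo3+/-, 9.01, 8.55 and 8.37 in Tg Foxo3+/-, 9.15, 9.12 and 8.99 in NoTg Foxo3-/-, and 8.95, 8.82 and 9.11 in Tg Foxo3-/- ovaries. Only Tg Foxo3+/- replicate 1 lay within the null range, and the difference was 0.40 ± 0.11 (adjusted p = 0.0261). Rfc1, Rfc2 and Rfc3 differed by 0.14 to 0.21 at their brightest probes and were not called. Rfc4 gave -0.15 ± 0.09 at the brighter of 2 probes and 0.16 ± 0.11 at the other. Pcna, the clamp, differed by -0.23 ± 0.17 and was the lowest of the 77 probes (adjusted p = 0.431).

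Polymerase and primase, single-strand binding and Okazaki fragment genes had 0 probes called by limma, with 4 of 6, 2 of 5 and 2 of 5 at an unadjusted p under 0.05, beside the same 23.4% of all probes. The 6 polymerase and primase probes had a median difference of 0.22, and Pold2 had the smallest p among them (0.22 ± 0.08, adjusted p = 0.0885). Pole, the catalytic subunit of the leading-strand polymerase, was 7.61, 7.64 and 7.56 in NoTg Foxo3+/-, 7.46, 7.25 and 7.45 in Tg Foxo3+/-, 8.03, 7.78 and 7.77 in NoTg Foxo3-/-, and 7.59, 7.67 and 7.48 in Tg Foxo3-/- ovaries. Its groups did not overlap in either transgene state, yet the difference of 0.22 ± 0.09 missed the threshold (adjusted p = 0.158). The 5 probes of the single-strand binding genes Rpa1, Rpa2 and Rpa3 had a median of 0.10. Lig1, the ligase that joins Okazaki fragments, gave 0.12 to 0.41 over 4 probes, and the flap nuclease Fen1 gave 0.02 ± 0.08.

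**Figure D3:**
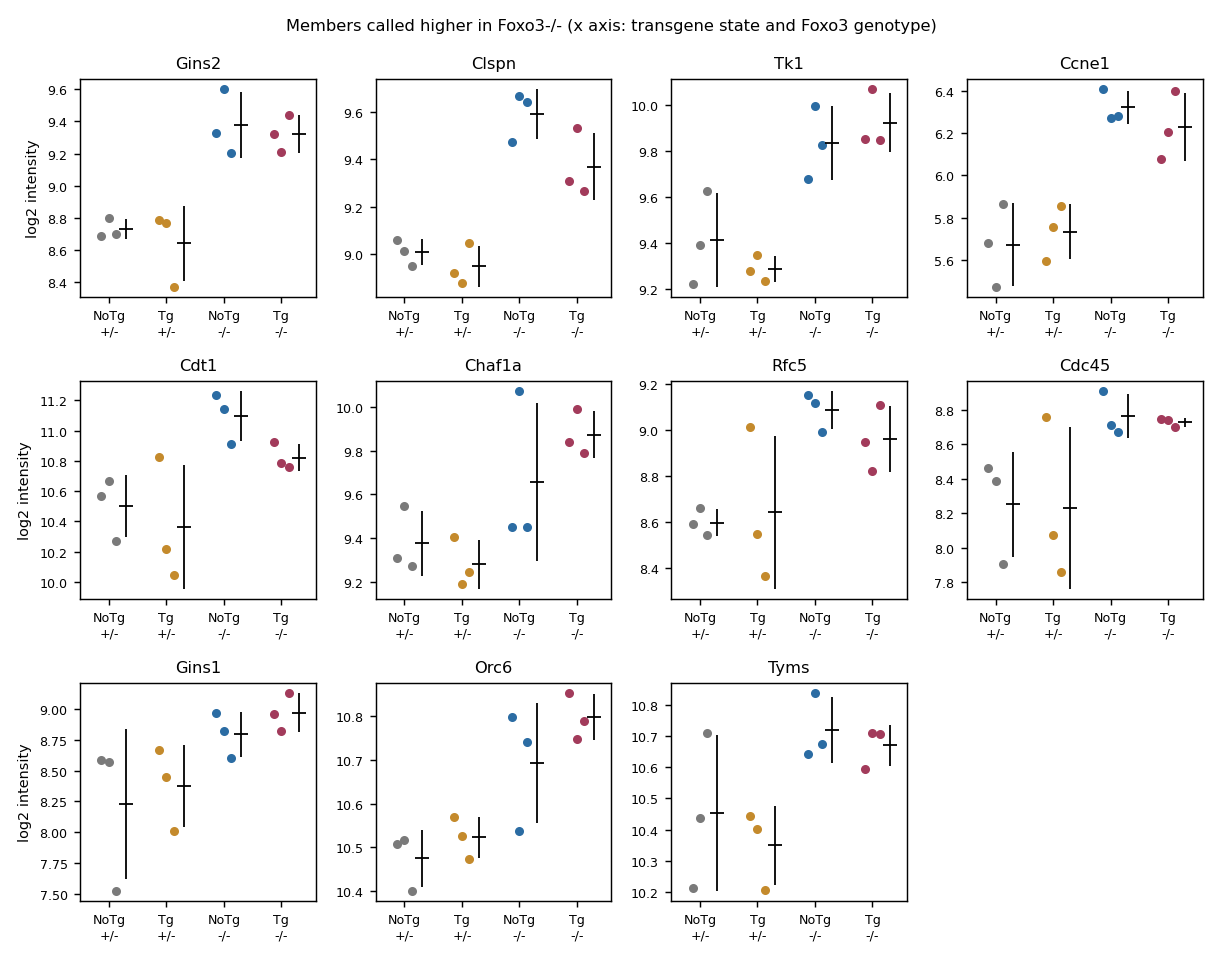
Points give log2 intensity on each array for the 11 genes called higher in Foxo3-/- ovaries, at the probe with the smallest p, and black bars give the mean ± SD of the 3 arrays of each group. Each panel has its own axis, which does not start at 0. In Gins2, Clspn, Tk1 and Ccne1 every Foxo3-/- array lies above every Foxo3+/- array.

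Taken one transgene state at a time, few probes passed. Without the transgene 2 of 77 were called higher, in Clspn and Gins2, against 0.400% of all probes. With it 2 were called higher, in Gins2 and Tk1, against 1.49%. At an unadjusted p under 0.05 the counts were 24 and 22, which is 31.2% and 28.6% of the member probes against 14.7% and 16.6% of all probes. The null group lay wholly above the heterozygous group at 27 member probes without the transgene, against 9.11% of all probes, and at 26 with it, against 12.9%. It did so in both at 11 probes, against 3.58% of all probes, and these belonged to Ccne1, Clspn, Gins1, Gins2, Mcm10, Orc6, Pole and Tk1. These 2 comparisons share no array.

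The transgene comparisons asked whether the transgene altered these genes. In Foxo3+/- ovaries 0 member probes were called by limma (0.360% of all probes were called lower). At an unadjusted p under 0.05 there were 7 (9.09%, against 9.96% of all probes), and with limma's array weights 4 were called (5.19%, against 4.11%). In Foxo3-/- ovaries 0 were called (0.182% of all probes were called lower). At an unadjusted p under 0.05 there were again 7 (9.09%, against 10.5%), and with array weights 1 was called (1.30%, against 2.27%). These shares were near or below those of all probes, apart from the 4 probes in Foxo3+/- ovaries, slightly above. Averaged over both genotypes, 2 member probes fell, in Pcna and Rpa2, against 2.94% of all probes called lower, a share near that background. The median transgene difference of member probes was 0.03 in Foxo3+/- and -0.01 in Foxo3-/- ovaries. The NoTg Foxo3+/- arrays that served as controls here were the controls of the Foxo3 comparison too.

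Pcna intensity was 6.29, 6.42 and 7.19 in NoTg Foxo3+/-, 6.07, 6.34 and 5.63 in Tg Foxo3+/-, 6.34, 6.17 and 6.81 in NoTg Foxo3-/-, and 5.71, 5.83 and 5.66 in Tg Foxo3-/- ovaries. The Tg arrays lay below the NoTg arrays in the null, and the heterozygous groups overlapped. The averaged difference was -0.66 ± 0.17 (1.58-fold lower, adjusted p = 0.0386). Background level, lower on every Tg array, moved with it, and its part was not tested beyond the covariate fit, in which Pcna was not called.

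Rpa2 was called at 1 of its 3 probes. ILMN_2597840 read 6.92, 6.73 and 6.90 in NoTg Foxo3+/-, 6.17, 6.16 and 6.30 in Tg Foxo3+/-, 6.98, 6.77 and 6.45 in NoTg Foxo3-/-, and 6.61, 6.49 and 6.07 in Tg Foxo3-/- ovaries. The groups did not overlap in the heterozygotes and overlapped in the null, and the averaged difference was -0.49 ± 0.12 (adjusted p = 0.0385). The brightest Rpa2 probe was not called and was higher, not lower, in Tg Foxo3+/- than in NoTg Foxo3+/- ovaries (8.39 to 8.63 against 8.14 to 8.45). The probes of this gene thus disagreed.

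Cdc6 had the smallest p among genes at their brightest probes in the null (-0.64 ± 0.16, adjusted p = 0.0905), with 7.91, 8.06 and 7.75 in Tg against 8.61, 8.52 and 8.49 in NoTg ovaries. Its other tested probe, ILMN_3155217, was dim, detected on 3 arrays, and went the other way (means of 4.97 in Tg and 4.65 in NoTg null ovaries). Pole lay lower on every Tg array than on every NoTg array within both genotypes, by 0.22 ± 0.13 and 0.28 ± 0.13, and was the 1 member probe of 77 to do so, against 3.31% of all probes. Rfc4 differed by -0.32 ± 0.09 averaged (adjusted p = 0.078). Rrm2 differed by 0.42 ± 0.15 in Foxo3+/- ovaries (adjusted p = 0.293).

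**Figure D4:**
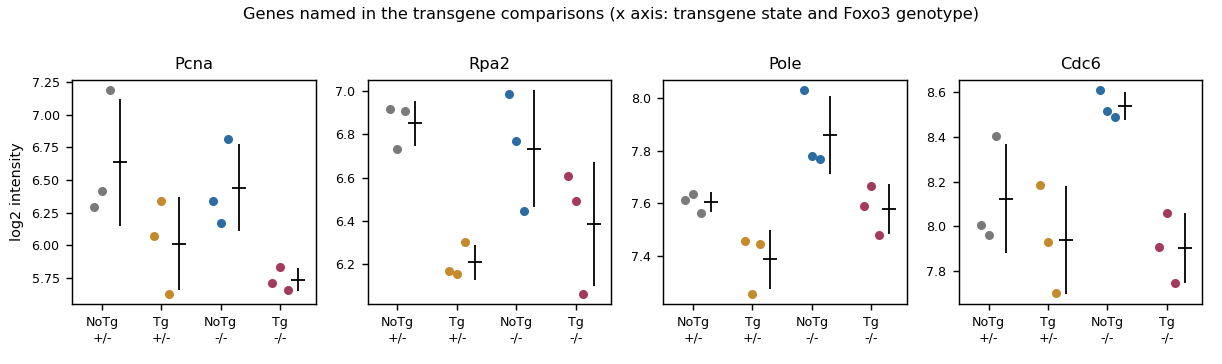
Points give log2 intensity on each array for Pcna, Rpa2 (ILMN_2597840), Pole and Cdc6 by group, with the mean ± SD of 3 arrays as black bars. Each panel has its own axis, which does not start at 0. The Tg Foxo3-/- arrays of Pcna lie at 5.66 to 5.83, below all other arrays except Tg Foxo3+/- replicate 3.

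The test of whether the Foxo3 effect differed between transgene states called 0 member probes and 0% of all probes by limma, with 1 member probe (1.30%) and 952 of all probes (4.23%) at an unadjusted p under 0.05. The median interaction of member probes was -0.04. The smallest p belonged to Orc5, at 0.32 ± 0.13 (adjusted p = 0.994). A p that misses the threshold does not show that the effects were alike.

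A second list of 73 other replication and S phase genes, drawn up with earlier results known, gave 115 tested probes of 62 genes. Averaged over transgene states, 10 probes rose and 0 fell (8.7%, against the 4.13% of all probes), and the median difference of the 115 was 0.12. With the background covariate all 10 lost their call, and the Nasp probe ILMN_1251930 lost it in 14 of 22 alternatives. They belonged to Asf1b and Nasp, which carry histones, Uhrf1, which keeps DNA methylation through replication, Dtymk, which makes thymidine diphosphate, Ung, which removes uracil from DNA, and the transcription factors E2f1 and E2f2.

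E2f1 intensity was 10.70, 10.57 and 10.65 in NoTg Foxo3+/-, 10.79, 10.67 and 10.49 in Tg Foxo3+/-, 11.18, 11.13 and 11.02 in NoTg Foxo3-/-, and 11.16, 11.39 and 11.07 in Tg Foxo3-/- ovaries. Every null array was above every heterozygous array, and the difference was 0.51 ± 0.08 (1.42-fold, adjusted p = 0.000963). E2f2 rose at both named probes, by 0.51 ± 0.13 and 0.58 ± 0.12. Uhrf1 rose in each transgene state, by 0.38 ± 0.08 without the transgene (adjusted p = 0.0413) and 0.33 ± 0.08 with it (adjusted p = 0.0463), and each of these calls was lost in 17 of 23 alternatives. Averaged over genotypes, Uhrf1 fell with the transgene by 0.26 on the log2 scale (SE 0.06, adjusted p = 0.0227), with 12.51 to 12.54 in Tg and 12.73 to 12.78 in NoTg heterozygotes. Nasp, at its probe ILMN_1238894, fell with it by 0.53 (SE 0.12, adjusted p = 0.023), and was not called at its brightest probe. These were the 2 of 115 probes called lower with the transgene, against 2.94% of all probes. The Uhrf1 transgene call was lost in 8 of 22 alternatives and the Nasp call in 9 of 20, the background covariate among them in each case.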

How the data were processed

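The deposited table held raw intensity, on a linear scale, with neither background subtraction nor normalization, for each probe and array. Per the file headers it also gave a detection p-value for each probe and array, where a low p-value marks a signal brighter than negative control beads. A second intensity table, normalized by the authors on a linear scale by a method that the sources do not state, had column medians of 81.59 to 90.78 and served only as an alternative. Whether it was centred is unknown. Opening lines of the raw table tie each column to its sample, and 0 value columns were without a sample.

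limma 3.58.1 in R 4.3.3 removed background by the normal-exponential model (offset of 16, background inferred from the detection p-values), followed by quantile normalization and log2. Probes detected on 3 or more arrays at p under 0.05 were tested. One model over the 12 arrays (lmFit, eBayes, intensity trend) had 4 group means, its tests were two-sided, and p-values were adjusted over all 22511 tested probes (Benjamini-Hochberg). Differences are log2 intensity with the model's standard error (SE). A gene with several probes is represented by the brightest unless a probe is named. For a probe undetected throughout the dimmer group, a fold is a bound against the lowest detected signal of each array. One probe's level was not set against another's. The model was tested on simulated independent normal values with no background differences between arrays, so that test does not cover the effect of such differences.

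Gene symbols came from the platform annotation given for the probes. The members, their roles and the other lists were chosen with earlier results of these data known. Genes were named if called in any comparison, if among the 6 smallest p-values of one, if their groups did not overlap in both Foxo3 or both transgene comparisons, or if a pairwise difference was over 0.5. Replicate numbers were not used as pairs, since not every pair of same-numbered arrays correlated above 0.1 in its deviations from the group means (mean 0.03, range -0.18 to 0.26, against a mean of -0.02 for arrays of different numbers). The number of arrays limits precision.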

Additional observations from a re-analysis of the deposited data

How the results depend on the processing

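The averaged Foxo3 comparison, with 15 member and 1878 of all probes called, gave 9 (657) under median scaling, 28 (3404) with array weights, 1 (119) with array background level as a covariate and 16 (1930) with the replicate number as a block (replicate block), all probes in parentheses. When single arrays were left out, the member count ran from 7 (1274) without Tg Foxo3+/- replicate 2 to 22 (2128) without Tg Foxo3+/- replicate 1. Tk1 at its brightest probe kept its call in all 22 alternatives. Ccne1, Cdt1, Clspn (ILMN_2623056) and Gins2 (ILMN_1246270) lost it only with the background covariate. The call was lost in 15 of 22 for Orc6, 17 of 22 for Tyms, 11 for Gins1, 8 for Cdc45, 7 for Rfc5 and 4 for Chaf1a, in 2 for the other Clspn and Gins2 probes, and in 8 of 21 and 16 of 20 for Tk1 at ILMN_2893926 and ILMN_2611857. Averaged over genotypes, the transgene calls of Pcna and Rpa2 were lost in 12 of 22 and 12 of 21. Without the transgene the count of 2 (205) became 1 under median scaling (62), without the detection filter (90 of 45281) and with 1 probe per gene (193 of 12173). It became 5 with the authors' normalized values (188), 10 with array weights (746), and 0 with only the compared groups (47) or the covariate (16). With single arrays left out it ran from 0 to 4 (35 to 342). With the transgene the count of 2 (491) became 0 under median scaling (54) or the covariate (17), and 1 with the authors' values (224). It became 5 with only the compared groups (774) and 20 with array weights (2698). With single arrays left out it ran from 0 to 5 (124 to 762). Without the transgene the call was lost in 13 of 22 alternatives for Gins2 and 8 of 22 for Clspn. With it the call was lost in 5 of 22 for Gins2 and 6 of 23 for Tk1. The cause of these moves was not tested. In Foxo3+/- ovaries the transgene count of 0 (82) became 4 with array weights (925). In Foxo3-/- ovaries the count of 0 (43) became 1 with the authors' values (366) or array weights (512). Leaving out single arrays there gave 0 to 1 (0 to 189), the 1 without NoTg Foxo3+/- replicate 3. The averaged transgene count of 2 (687) became 1 without background correction (645) or with 1 probe per gene (319 of 12173), and 5 with the authors' values (1641). It became 7 with array weights (1544), which is 9.09% of member probes beside 6.86% of all probes. It became 0 under median scaling (192), without the filter (511 of 45281) or with the covariate (0). With single arrays left out it ran from 0 to 2 (371 to 978). With the covariate the sign turned for Fen1 (-0.46), Mcm7 at ILMN_2673889 (-0.90) and Rrm2 (-0.05) in Tg against NoTg Foxo3+/-, and for Rrm2 averaged (-0.18), none of them called. Median scaling put the median of all probes at 0.14 (0.01 as reported) without the transgene, at 0.13 (0.02) and -0.10 (0.02) for the transgene in Foxo3+/- and Foxo3-/-, and at -0.23 (0.00) for the interaction. Relative to all probes, the members' median Foxo3 difference was 0.15 to 0.26 without the transgene, 0.12 to 0.29 with it and 0.13 to 0.24 averaged, over all alternatives run. Of the arrays, 6 of 12 correlated best with their own number. Chip and hybridisation day are not given in the sources used here, and each group had 3 arrays.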
